A study of Mus musculus with 4 samples.

Results

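Kupffer cells, the resident macrophages of the liver, were defined among CD45+ cells of the healthy mouse liver by UMIs (unique molecular identifiers, each standing for 1 captured RNA molecule) of 6 marker genes. Cells entered with 200 or more genes detected and no more than 10% of UMIs from the mitochondrial genome. A barcode seen in several libraries was counted where 70% or more of its UMIs lay. A kept cell counted as a Kupffer cell when at least 3 of Clec4f, Vsig4, Cd5l, Slc40a1, Folr2 and C6 had a UMI and Cd3d, Cd3e, Cd79a and Xcr1 had none, a condition meant to leave out T cells, B cells and type 1 dendritic cells. This gate held 209 of 1593 kept cells. The members were chosen by the measured UMIs of these markers, so the markers' levels in them are a description and no test was made of Kupffer cells against other cells.

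The study sequenced CD45+ leukocytes from the livers of healthy C57BL/6 mice with the genotype PA-GFP, a fluorescent protein that light switches on, after photoactivation of the tissue around the portal vein (PV) or around the central vein (CV). All 4 libraries share this genotype and treatment and differ in the zone: 2 came from PV and 2 from CV, called PV 1, PV 2, CV 1 and CV 2 by the numbers in their titles. The sources used here give neither the age and sex of the mice nor whether a library came from 1 mouse or several, so p-values measure the spread between libraries, which may be technical. Portal blood brings material from the gut into the liver lobule and the central vein drains it, and the zone comparison asks how Kupffer cells at these positions differ.

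Kupffer cells sit inside the liver sinusoids, where they capture bacteria and particles from the blood, take up aged red cells and dying cells, and return iron to the circulation. They are seeded before birth and largely maintain themselves, and monocytes can take on their identity when the niche is emptied. Their identity is held by factors such as the nuclear receptor LXR alpha (gene Nr1h3), Spic and Id3, under signals from the neighbouring endothelial, stellate and parenchymal cells that include TGF-beta, BMP and Notch ligands. Marco, a scavenger receptor for bacteria, and the anti-inflammatory cytokine Il10 are among the genes by which liver macrophages are divided.

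The Kupffer cells were spread unevenly over the libraries. PV 1 held 3 of its 333 kept cells, a share of 0.901% (95% Wilson interval 0.307% to 2.61%). PV 2 held 113 of 512, or 22.1% (18.7% to 25.9%). CV 1 held 54 of 372, or 14.5% (11.3% to 18.5%), and CV 2 held 39 of 376, or 10.4% (7.68% to 13.9%). The PV libraries thus lay on both sides of the CV libraries, and the zone means of 11.5% ± 14.97 for PV and 12.4% ± 2.93 for CV (SD, n = 2 each) differed by -0.959 percentage points (exact two-sided permutation test, p = 1, in a design that cannot go below 0.333). Without PV 1 the difference was 9.63 points and without CV 1 it was 1.11. Intervals cover counting error only.

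The share in PV 1 moved with barcodes that occur in several libraries. Of 1939 distinct barcodes, 282 occurred in more than 1 library, and of the 240 barcodes that passed the gate in any library 70 did. Where such barcodes were kept in every library, the gate held 63, 142, 92 and 83 cells in PV 1, PV 2, CV 1 and CV 2, or 11.4%, 22.0%, 16.6% and 15.2%. The copies that the 70% rule dropped numbered 60, 29, 38 and 44 with median UMIs of 769.5, 932, 754.5 and 757.5, against medians of 4052, 6338, 6340.5 and 7972 in the cells retained. Of these dropped copies, 36, 10, 20 and 22 were Kupffer cells in another library. Among retained Kupffer cells, 39 barcodes also occurred elsewhere and held a median of 89.0% of their UMIs in the library that kept them.

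**Figure D1:**
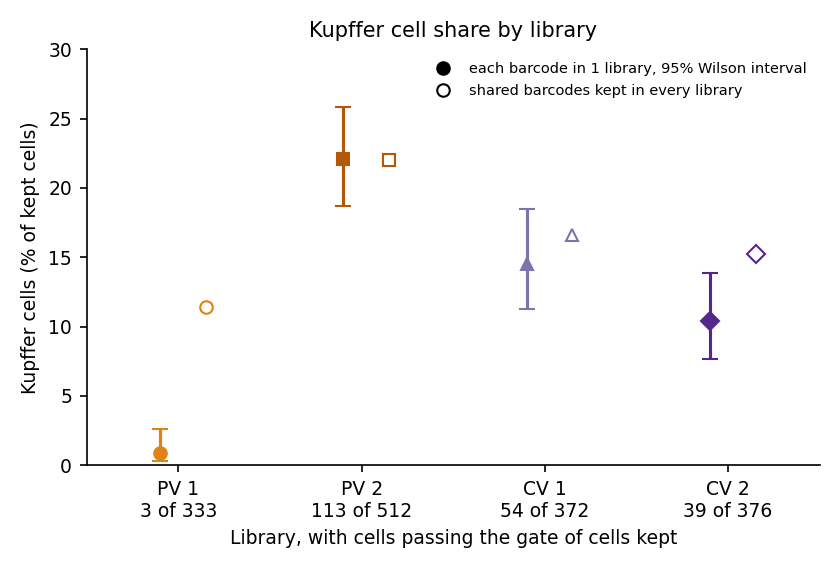
Kupffer cells as a percentage of kept cells (y axis) in each library (x axis), with each barcode in 1 library and its 95% Wilson interval (filled) and with shared barcodes kept in every library (open). PV 1 lies at 0.901% with 3 cells and at 11.4% with shared barcodes kept, while PV 2 is at 22.1% and 22.0%.

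With 3 cells and 9597 UMIs, PV 1 measures a gene coarsely: 1 UMI there is 104 CPM. PV 2, CV 1 and CV 2 held 886640, 379273 and 320789 UMIs of Kupffer cells. Single cells ranged from 607 to 31661 UMIs. The median share of mitochondrial UMIs was 7.23%, 3.43%, 3.72% and 2.45% in PV 1, PV 2, CV 1 and CV 2. PV 1 enters the zone comparison as a full library, and values without it are given beside the results it moves.

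The 3 gate genes shown next carry the identity of the members here and have a RefSeq promoter on GRCm38.p6, so the bases just upstream of their starts are shown 5′ to 3′ on the coding strand. Clec4f encodes a lectin found on rodent Kupffer cells (chr6:83656188-83656366, minus strand), Cd5l a secreted scavenger protein that macrophages release (chr3:87357631-87357880, plus strand) and Vsig4 a receptor for complement-coated particles (chrX:96293439-96293688, minus strand). Capitals mark the SMAD motif GTCTG, read on either strand.
Clec4f: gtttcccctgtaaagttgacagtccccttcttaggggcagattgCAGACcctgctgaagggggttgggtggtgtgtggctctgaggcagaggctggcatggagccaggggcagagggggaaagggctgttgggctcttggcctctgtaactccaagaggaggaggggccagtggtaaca
Cd5l: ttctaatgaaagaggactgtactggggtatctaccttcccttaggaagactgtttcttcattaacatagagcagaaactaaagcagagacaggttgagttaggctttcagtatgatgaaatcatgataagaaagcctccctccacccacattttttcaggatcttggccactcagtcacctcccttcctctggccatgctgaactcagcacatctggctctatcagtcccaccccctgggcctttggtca
Vsig4: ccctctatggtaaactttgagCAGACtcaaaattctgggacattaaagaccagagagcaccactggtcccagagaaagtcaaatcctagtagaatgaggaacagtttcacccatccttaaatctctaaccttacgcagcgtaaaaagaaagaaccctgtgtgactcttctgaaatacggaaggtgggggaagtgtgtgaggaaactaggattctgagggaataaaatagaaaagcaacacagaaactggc
The SMAD motif occurred once in Clec4f and once in Vsig4, both times as CAGAC, and not in Cd5l. Of 32851 RefSeq promoters, 42.2% hold it in a window of 250 bases and 33.1% in a window of 179 bases. The PU.1 motif GAGGAAGT, the nuclear receptor half-site AGGTCA and the RBPJ motif TGGGAA, searched on both strands, had 0 matches in the 3 windows. They occur in 2.44%, 14.0% and 21.6% of promoters over 250 bases. Only the SMAD motif matched, so no matches overlap, and a match or its absence says nothing about binding of the factor.

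The gate genes were present in nearly all members at high level. Levels are given below as UMIs of the gene per 1000000 UMIs (CPM) of the summed cells, a scale that does not divide by gene length in this 3′ assay, and in the order PV 1, PV 2, CV 1 and CV 2 wherever 4 values stand together. Clec4f was at 6669, 5314, 4664 and 5281 and had a UMI in 99% of members. Cd5l was at 3647, 4181, 4084 and 5349, and Vsig4 at 2918, 2626, 2761 and 2615. The zones overlapped for Cd5l, with CV 2 highest, and for Vsig4, while both PV libraries lay above both CV libraries for Clec4f, PV 2 by a small margin.

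Slc40a1, the iron exporter ferroportin, was at 938, 2902, 2341 and 3849.9 and had its lowest value in the 3 cells of PV 1. Folr2, a folate receptor of tissue macrophages, was at 1563, 1088, 1276 and 1331, and C6, a component of the terminal complement complex, at 834, 872, 1229 and 1082. Of the 209 members, 167 had UMIs of all 6 genes, 22 of 5, 12 of 4 and 8 of 3. The members with 6 genes had a median of 7557 UMIs, and those with 5, 4 and 3 had 1930, 1426 and 1295.5.

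At the edge of the gate, 11 cells with 2 of the genes lay just outside and 8 with 3 just inside. The cells outside had a median of 7124 UMIs, Clec4f at 60.4 and Cd5l at 131 CPM, and the cells inside had Clec4f at 723, Cd5l at 775 and Vsig4 at 0. The macrophage gene C1qa was at 1995 outside and 6042 inside. Ms4a7, a gene of monocyte-derived macrophages, was at 141 outside, 1291 inside at 3 genes and 84.8 in cells with all 6. It had a UMI in 2 of the 11 cells outside, 3 of the 8 inside and 60 of the 167 with all 6, so its level at the edge rests on few cells. A further 25 cells met the marker count but had a UMI of Cd3d or Cd3e (19 cells), Cd79a (3) or Xcr1 (3), with a median of 10743 UMIs, above the median of 6468 in the members.

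The label held against genes that the gate did not use. Of 24 Kupffer cell identity genes outside the gate, 23 had a UMI (Lrp1b was at 0), and their summed level was 16672, 12605, 11548 and 12962 CPM, against 2181 in the 74 other macrophages and 214 in 802 T cells. Other macrophages here are kept cells outside the gate with at least 2 genes detected of a macrophage set that includes Adgre1, C1qa, C1qb, C1qc and Csf1r, and none of the excluding genes. Fcna, a ficolin that tags microbes for complement, was at 2397, 2506, 1498 and 2537 and had a UMI in 94.7% of members. Cfp, which encodes properdin, was at 3022, 1900.4, 2275 and 2176, and Hpgd, an enzyme that degrades prostaglandins, at 1042, 1552, 1284 and 1764.

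Timd4, the phosphatidylserine receptor that marks long-lived resident macrophages, was at 521, 533, 541 and 529.9. These values were nearly the same, but that of PV 1 rested on 5 UMIs and cannot show how alike that library is. Cd163, the receptor for haptoglobin-bound haemoglobin, was at 417, 947, 894 and 617, and Clec1b, a lectin, at 1042, 467, 424 and 477. Marco ranged most, at 3543, 471, 983 and 408, with CV 1 above PV 2 and CV 2 and the value of PV 1 resting on 34 UMIs. Cdh5, known from endothelial cells, had a UMI in 78.5% of members at 729, 609, 427 and 689 CPM.

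Marker lists of other cells were read in the same sums. Of 9 T cell markers, Cd3d, Cd3e (both used by the gate) and Il7r were at 0 and the sum was 0, 11.3, 13.2 and 15.6 CPM, against 6213 in T cells. Of 10 monocyte markers, Ly6c2, Chil3 and Spn were at 0 and the sum was 313, 494, 638 and 527, against 2781 in other macrophages. Neutrophil markers summed to 208, 84.6, 548 and 49.9, highest in CV 1, and Ly6g and Camp were at 0. Hepatocyte markers summed to 521, 1577, 1134 and 1194, against 464 in other macrophages and 109 in T cells, with Alb at 104, 324, 224 and 199.5 and Mup20 at 0. The 12 sinusoidal endothelial markers all had a UMI and summed to 834, 1150.4, 617 and 892, against 827 in other macrophages. Over all members Cdh5 held 583 of the sum of 969.7, and Stab2, a hyaluronan receptor of these cells, was at 81.4 against 20.8 and had a UMI in 44 of 113 members in PV 2, 16 of 54 in CV 1 and 18 of 39 in CV 2. Stellate cell markers summed to 0, 149, 145 and 199.5, against 19.3 in other macrophages.

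Among myeloid lists, markers of monocyte-derived and capsular macrophages summed to 834, 1034, 1065 and 1247, against 4948 in other macrophages, with Spp1 at 0. Markers of type 1 dendritic cells summed to 417, 700.4, 559 and 714 against 582, with Xcr1, used by the gate, at 0, and those of type 2 to 104, 564, 609 and 673 against 745, with Flt3 at 0. The hepatocyte, endothelial, stellate and type 1 dendritic sums over all members (1388, 969.7, 157 and 668) were thus above those of other macrophages, and their part in the results was not tested. Scrublet at an expected rate of 3% called 2 members doublets, 1 in PV 2 and 1 in CV 1.

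**Figure D2:**
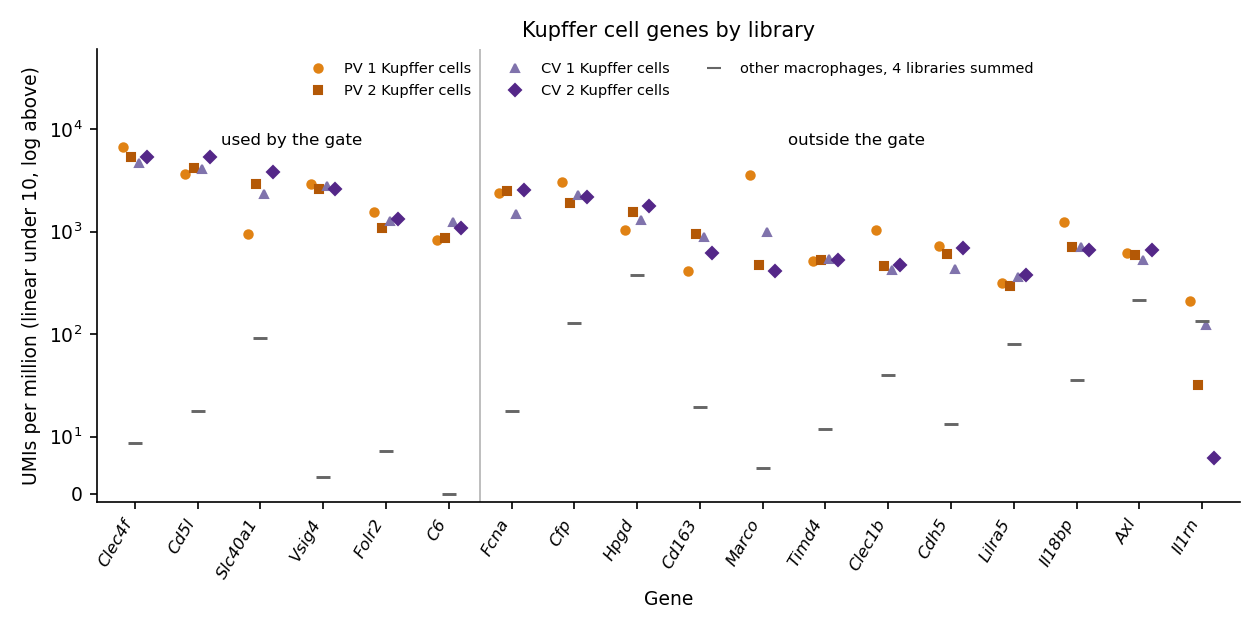
CPM in the summed Kupffer cells (y axis, linear under 10 and logarithmic above) for the 6 genes of the gate and 12 identity genes outside it (x axis), by library, with the summed other macrophages as grey bars. Timd4 lies between 521 and 541 in all 4 libraries, in PV 1 from 5 UMIs. The other macrophages lie far below the Kupffer cells for most genes, C6 at 0, but not for Il1rn.

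Set beside the other macrophages, as a description since the gate drew the line between them, Kupffer cells had Clec4f at 5161 against 8.93 CPM (578-fold), Cd5l at 4389.5 against 17.9 (246-fold) and Folr2 at 1185 against 7.44 (159-fold). Outside the gate genes, the B cell chemoattractant Cxcl13 was at least 214-fold higher and the fatty acid binding protein gene Fabp7 at least 110-fold higher, with 0 UMIs of each in the other macrophages and a floor of 3 counts over the group. The apolipoprotein gene Apoc1 was at 4704 against 40.2 (117-fold), Timd4 was 44.9-fold, Cd163 44.7-fold and Cdh5 43.5-fold higher. Marco had 956 UMIs in Kupffer cells and 3 in other macrophages.

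Other genes were higher in the other macrophages. Spp1 (osteopontin) and Napsa, an aspartic protease gene, had 0 UMIs in Kupffer cells. In the other macrophages of the 4 libraries Napsa was at 444, 290.1, 277 and 448 CPM (at least 194-fold higher over all cells, with the floor of 3 counts), while Spp1 was at 2356, 0, 13.2 and 0, nearly all in PV 1. Ccr2, the receptor that brings monocytes into tissue, was at 2.51 against 466 CPM (186-fold lower), and the galectin gene Lgals1 was 43.9-fold lower. Fabp5 stood at 1890.3, 290.1, 0 and 27.6 in the other macrophages, most of it in PV 1, against 12.5 over all Kupffer cells. The integrin gene Itgax (CD11c) had 3 UMIs in Kupffer cells and 169 in other macrophages. Cd209a, on both the type 2 dendritic and the monocyte-derived marker lists, was at 0.626 against 320 CPM. The other macrophages were set by macrophage genes alone, and whether they hold dendritic cells or monocytes was not tested. Of 1584 genes at 100 CPM or more in Kupffer cells, 126 were over 4-fold higher than in other macrophages, and of 1327 genes at that level in other macrophages, 79 were over 4-fold higher there.

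**Figure D3:**
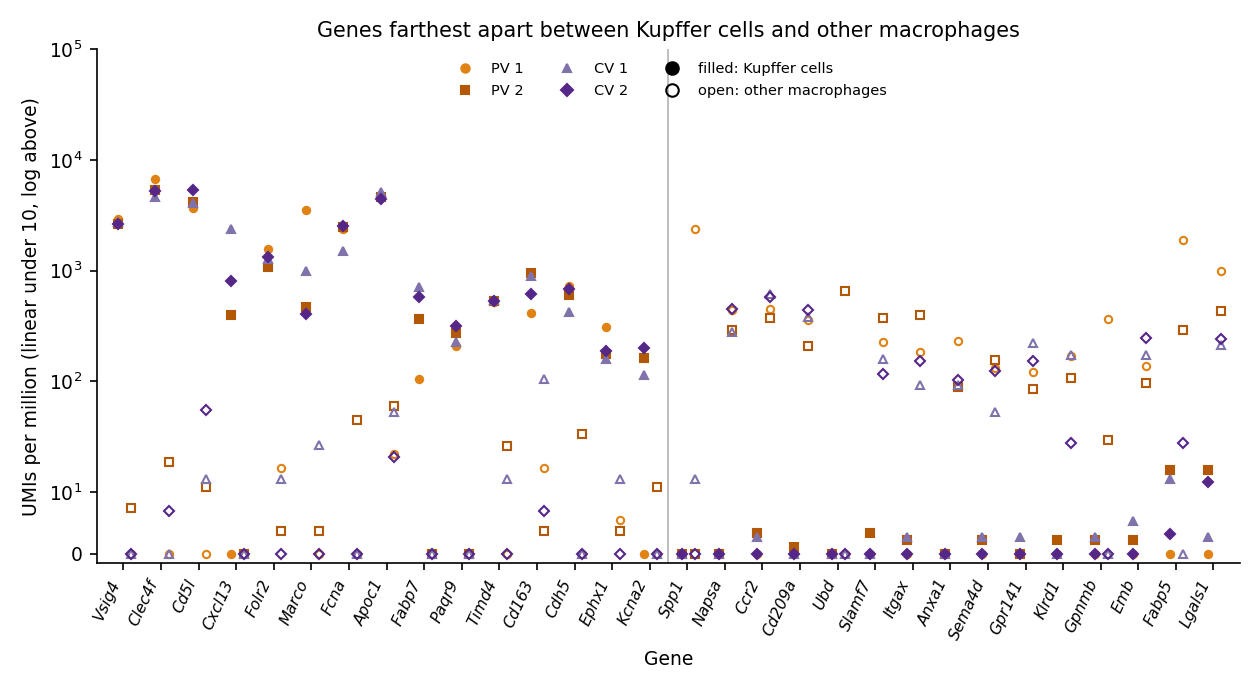
CPM (y axis, linear under 10 and logarithmic above) of the 15 genes with the largest fold in each direction between Kupffer cells (filled) and other macrophages (open), by library. Left of the line the filled symbols lie above the open ones, except for the PV 1 values at 0 of Cxcl13 and Kcna2, and right of it the filled symbols lie near 0. The open symbols of Spp1 are high in PV 1 and those of Ubd in PV 2 alone.

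By function, the members shared an abundant programme for complement, iron, lipid and lysosomal handling. C1qa, C1qb and C1qc, the chains of C1q, were at 6105, 4159.6 and 4438 CPM over all members, against 2105, 2093 and 1431 in other macrophages. Hmox1, the haem-degrading enzyme, was at 1563, 1521, 1432 and 2587, against 119 in other macrophages, and the ferritin genes Ftl1 and Fth1 were at 6189 and 5138, against 5777 and 7747 in other macrophages. Apoe, the main apolipoprotein of macrophages, was among the most abundant transcripts at 14067, 17474, 13787 and 14256, and was at 15041 in other macrophages. Lysosomal proteases such as Ctsb (5880.5) and Lgmn (2952) were above their levels in other macrophages (1744 and 507).

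Antigen presentation stood the other way. The 12 genes of the MHC class II list summed to 21465, 13039, 25899.5 and 11836 CPM in Kupffer cells and to 51250.4 in other macrophages. Cd74, the invariant chain, was at 6877, 4443, 10576 and 4274, so PV 1 and CV 1 were high and PV 2 and CV 2 low, and H2-Aa was at 3751, 1847, 4147 and 1449.5 with the same order. Ciita, the regulator of this set, was at 19.4 over all members against 196.

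Among identity regulators, Nr1h3 was at 1563, 691, 678 and 779 against 78.9 in other macrophages, Spic at 417, 205, 221 and 143 against 14.9, and Id3 at 3126, 1365, 1147 and 789 against 671. Of the 18 pro-inflammatory cytokine and chemokine genes, Il12a, Il12b and Nos2 were at 0, and the sum was 11045, 2829.8, 3668 and 1272 CPM. Il6 had 0, 69, 25 and 21 UMIs and Cxcl9, a chemokine induced by interferon gamma, 0, 208, 4 and 2, almost all in PV 2. Proliferation genes were rare: Mki67 had a UMI in 6.22% and Top2a in 4.31% of members.

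For the zone comparison, UMIs of the members were added up in each library and compared by edgeR's quasi-likelihood test (TMM scaling, Benjamini-Hochberg adjustment at 0.05, 2 libraries per zone). Of 4738 genes tested, 1 passed, or 0.0211%, and it was lower in PV: S100a9, a neutrophil calgranulin (log2 fold change -6.32 ± 0.87 SE, edgeR adjusted p = 1.42e-09, range over the alternatives 7.84e-19 to 1). S100a9 had 1, 0, 82 and 1 UMIs, and 76 of the 82 in CV 1 came from 1 cell. That cell had 5230 UMIs, all 6 gate genes, 9 UMIs of Clec4f, 56 of S100a8 and 30 of Retnlg, both neutrophil genes, and was called a doublet. Without called doublets S100a9 was too low to be tested and 0 genes passed. No other zone difference was past the test in either direction: 58 genes (1.22%) reached an unadjusted p under 0.05 and none were called by DESeq2, and the median log2 fold change over all genes was -0.05.

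The number of genes called turned on single libraries. Without PV 1, with PV 2 as the lone PV library and assumed to vary like the others, 11 genes passed: Fcgr2b, Kdr, Cxcl9, Ccr3, Dnase1l3 and Gm26917 were higher in PV 2, and S100a8, S100a9, Cxcl13, Mmp12 and Retnlg lower. Without PV 2, which leaves the 3 cells of PV 1, 83 passed. Without CV 1 it was 0 and without CV 2 it was 5 (S100a8, S100a9, Retnlg, Mmp12 and Acod1, all lower in PV). With shared barcodes kept, 1 gene passed, Cxcl9 (log2 fold change 2.79), and S100a9 did not (-5.00). In that setting a barcode counts in several libraries, so the libraries are not independent. Of the 63 gated cells of PV 1 there, 60 were copies that the 70% rule drops. Among the genes named as higher without PV 1, Fcgr2b, Kdr and Dnase1l3 are on the list of sinusoidal endothelial markers. The sum of that list was highest in PV 2, at 1150.4 CPM. In PV 2, CV 1 and CV 2, Fcgr2b had 75, 2 and 1 UMIs, Kdr 47, 2 and 1, and Dnase1l3 77, 7 and 5. The part of endothelial RNA in them was not tested. Among the genes named as lower without PV 1, S100a8 had 2, 63 and 3 UMIs in PV 2, CV 1 and CV 2. Retnlg had 1, 31 and 0 and Mmp12 2, 89 and 0, so PV 2 was not below CV 2 for Retnlg or Mmp12. In CV 1 the called doublet held 56 UMIs of S100a8, 76 of S100a9 and 30 of Retnlg. The fit without CV 2 leaves CV 1 as the lone CV library.

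The chemokine gene Cxcl13 had the next smallest p. Its level was 0, 399, 2397 and 811 CPM from 0, 354, 909 and 260 UMIs, with both CV libraries above both PV libraries (log2 fold change -2.44 ± 0.60 SE, edgeR adjusted p = 0.114, range over the alternatives 4.60e-10 to 1). A UMI was found in 42 of 113 members in PV 2, 36 of 54 in CV 1 and 11 of 39 in CV 2. A few cells carried most of the UMIs: the 3 highest held 54.2%, 51.9% and 80.8% in these libraries. With shared barcodes kept the difference was -0.62.

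Other genes without overlap between the zones did not pass (each adjusted p = 0.999 in edgeR). Genes above in both PV libraries made up 12.4% of all tested and genes below 17.1%. The interleukin gene Il1a was at 313, 133, 65.9 and 37.4 (log2 fold change 1.36 ± 0.45 SE), with both PV libraries above both CV libraries. Its PV 1 value is 3 UMIs, as 1 UMI there is 104 CPM, and those of the next genes rest on few UMIs too. The NF-kappa-B subunit gene Rela was at 208, 100.4, 39.5 and 49.9 (log2 fold change 1.18 ± 0.48 SE), the antiproliferative gene Btg2 at 521, 427, 269 and 99.8 (log2 fold change 1.09 ± 0.43 SE) and the BMP target Id1 at 625, 195, 108 and 125 (log2 fold change 0.87 ± 0.41 SE).

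Lower in both PV libraries were the intermediate filament gene Vim at 0, 73.3, 182 and 156 (log2 fold change -1.29 ± 0.43 SE), the chemokine gene Ccl9 at 0, 18, 84.4 and 37.4 (log2 fold change -1.82 ± 0.60 SE), the lipid scavenger receptor Cd36 at 104, 145, 250.5 and 334 (log2 fold change -1.08 ± 0.44 SE) and Irak3, a brake on Toll-like receptor signalling, at 0, 22.6, 63.3 and 59.2 (log2 fold change -1.49 ± 0.58 SE). Vim, Ccl9 and Irak3 were at 0 in PV 1, where 1 UMI is 104 CPM. Marco (log2 fold change 0.59 ± 0.56 SE) and Il10 (log2 fold change -0.27 ± 0.45 SE; 10, 56, 78 and 3 UMIs, those of PV 1 in 1 cell) overlapped between the zones. The chemokine gene Cxcl2 (log2 fold change 1.57 ± 0.53 SE) was at 3230.2, 439, 461 and 153, and passed where libraries were scaled by their totals without TMM (log2 fold change 1.92). Its PV 1 value rested on 31 UMIs, 25 of them in 1 cell, and PV 2 lay below CV 1.

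No gene of any functional list passed in this comparison. The TMM factors were 1.48, 0.885, 0.834 and 0.917, and the signs of the lists moved with scaling. Of the 6 gate genes 0 were above 0 and 6 below (median log2 fold change -0.45), but 2 and 4 without TMM. All 16 complement genes tested were below 0 (median -0.30, against -0.05 over all genes), but 6 were above 0 without TMM, and 5 with shared barcodes kept. All 18 lysosomal genes tested were below 0 (median -0.34), but 5 were above 0 without TMM, and the median without PV 1 was -0.03.

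Of 22 tested identity genes outside the gate, 11 were above and 11 below 0 (median -0.02). Of 24 immediate early and stress genes, such as Egr1 at 729, 451, 366 and 122 and Fosb at 521, 446, 525 and 168, 19 were above 0 (median 0.26), 23 without CV 1 and 5 without CV 2, which was the lowest library for this list: the sum was 24070, 17161, 18232 and 9046 CPM. Of 11 MHC class II genes, 9 were below 0 (median -0.24) and 3 without CV 1. Of 13 pro-inflammatory genes 8 were above 0 (median 0.09), and of 19 transcription factors 12 were (median 0.08).

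**Figure D4:**
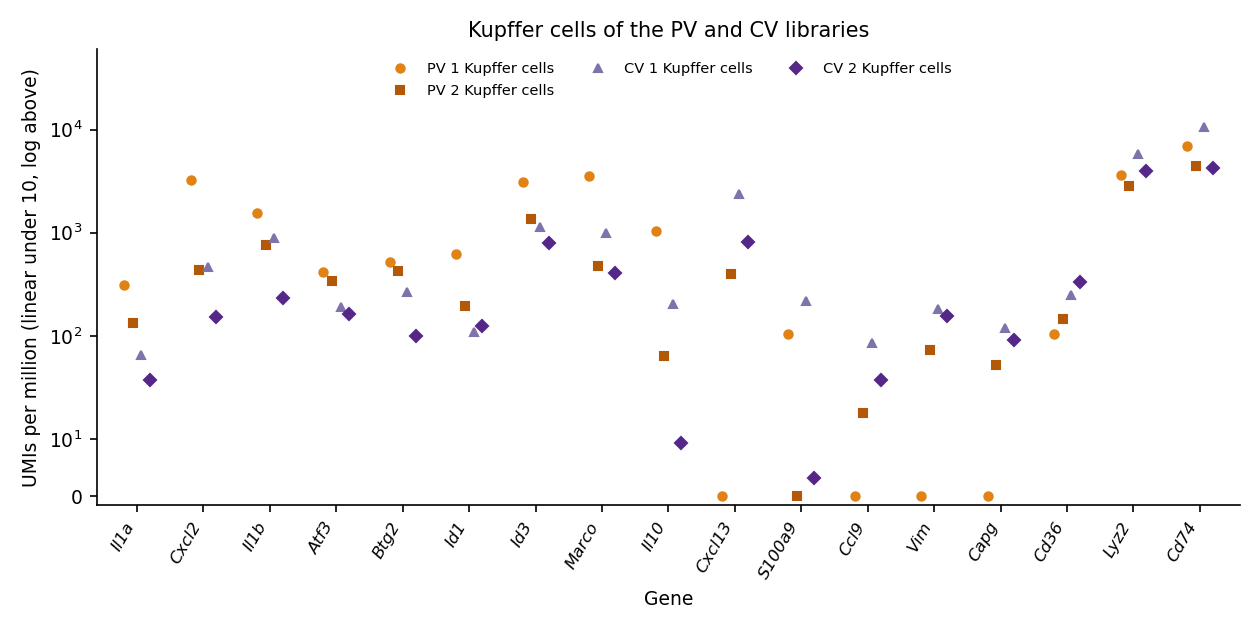
CPM in the summed Kupffer cells (y axis, linear under 10 and logarithmic above) for genes named in the zone comparison (x axis), by library. S100a9 is high in CV 1 through 1 cell, both CV libraries lie above both PV libraries for Cxcl13, and PV 1, with 3 cells, is far from PV 2 for many genes.

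Whether members differ among themselves in Marco, Timd4 and Mrc1 was read after each cell was thinned at random to 2969 UMIs, the 25th percentile of the members, which left out 52 shallower members and kept 157. A Marco UMI was found in 74 of them, or 47.1% (39.5% to 54.9%), against 56.5% of all members unthinned. By library it was 2 of 2 cells in PV 1, 38.6% of 88 in PV 2 (29.1% to 49.1%), 68.4% of 38 in CV 1 (52.5% to 80.9%) and 41.4% of 29 in CV 2 (25.5% to 59.3%). CV 1 was thus above PV 2 beyond the counting intervals, and CV 2 was not. The share was 0.792% of 758 T cells thinned in the same way, whose median depth was 6237 UMIs unthinned against 8473 in the thinned members. It was 0 of 58 other macrophages, which allows up to 5.17% (3 counts of the total). T cells are read as a background of free RNA, but cells with Kupffer gate genes were not taken out of them. Doublets of a T cell and a Kupffer cell can thus be among them, and their part was not tested.

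A Timd4 UMI was found in 73.2% (65.8% to 79.6%) of thinned members, at 78.4% in PV 2, 71.1% in CV 1 and 62.1% in CV 2, with overlapping intervals, and in 0.660% of T cells. Mrc1, the mannose receptor, was found in 87.9% (81.9% to 92.1%), at 86.4%, 89.5% and 93.1% in these libraries, and in 1.58% of T cells and 25.9% of other macrophages. Il10 was found in 7.64% (4.43% to 12.9%), at 5.68%, 13.2% and 3.45%, and in 0.264% of T cells. The PV minus CV difference was 14.4 percentage points for Marco and -2.36 for Timd4 (exact two-sided permutation test, p = 1 for each), and -23.1 for Mrc1 (p = 0.333, the smallest that 2 against 2 libraries allow; 3 shares compared). Without PV 1 the differences were -16.3, 11.8 and -4.92 points, so that the signs for Marco and Timd4 turned with the 2 thinned cells of PV 1. Without CV 1 the difference for Timd4 was 2.14 points.

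**Figure D5:**
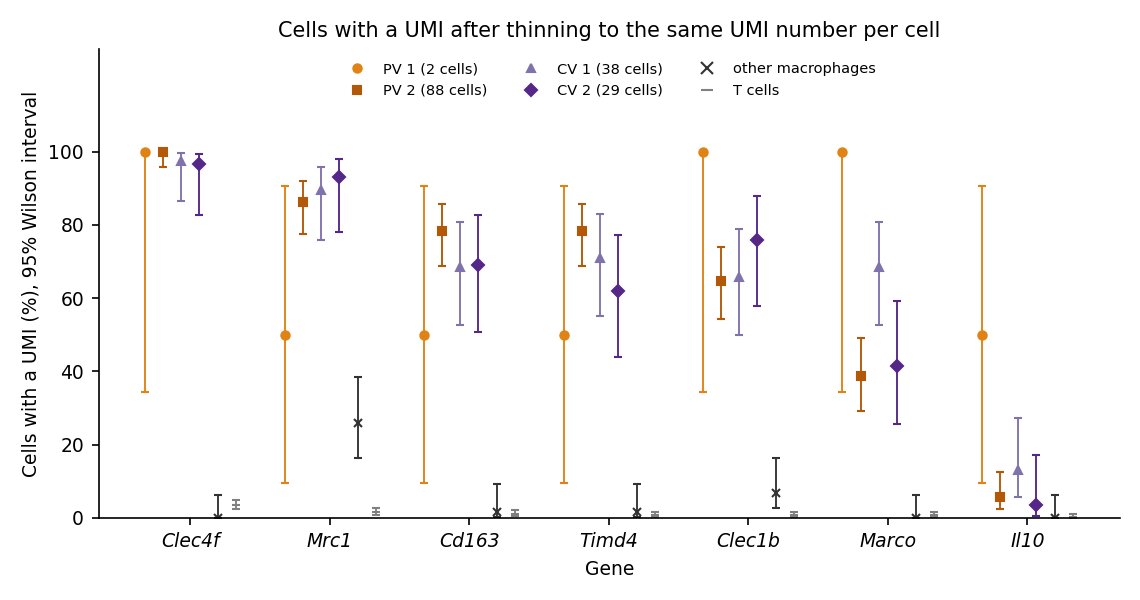
Percentage of cells with a UMI (y axis, 95% Wilson intervals) for 7 genes (x axis) after thinning each cell to 2969 UMIs, by library, with other macrophages and T cells beside them. Marco is at 38.6% in PV 2, 68.4% in CV 1 and 41.4% in CV 2, and the T cell share is under 4% for each gene.

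Marco and Timd4 were found side by side. Of the 157 thinned members, 55 had UMIs of both, 19 of Marco alone, 60 of Timd4 alone and 23 of neither, so Timd4 was found in 74.3% of Marco-positive and 72.3% of Marco-negative cells. The order differed between libraries: 82.4% against 75.9% in PV 2, 73.1% against 66.7% in CV 1 and 58.3% against 64.7% in CV 2. Mrc1 was found in 85.1% of Marco-positive and 90.4% of Marco-negative cells, with CV 1 in the opposite order (92.3% against 83.3%), and in 91.3% of Timd4-positive and 78.6% of Timd4-negative cells. Cd163 was found in 67.6% of Marco-positive and 79.5% of Marco-negative cells, lower in the positive cells of PV 2, CV 1 and CV 2. Il10 was found in 6.76% of Marco-positive and 8.43% of Marco-negative cells, with CV 1 again in the opposite order (15.4% against 8.33%).

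Cells with and without a Marco UMI after thinning were added up within PV 2 (34 and 54 cells), CV 1 (26 and 12) and CV 2 (12 and 17) and tested with the library as a block. In edgeR 0 of 1068 genes passed (0%), 53 had an unadjusted p under 0.05, the smallest adjusted p was 0.394, and DESeq2 called 0. Genes of the mitochondrial genome stood above: 11 of 12 had a log2 fold change above 0 (median 0.52, against 0.00 over all genes), and none passed. The cytochrome oxidase gene mt-Co1 was at 11368 and 8121, 13131 and 7634, 8879.9 and 6003 CPM (positive and negative cells of PV 2, CV 1 and CV 2 in turn), higher in the positive cells of each library (log2 fold change 0.62 ± 0.15 SE, edgeR adjusted p = 0.465, range over the alternatives 0.0924 to 1). The median share of mitochondrial UMIs was 4.27% in positive and 3.01% in negative cells of PV 2, 4.71% and 2.86% in CV 1, and 2.48% and 2.45% in CV 2. Before thinning, the positive cells had the lower median depth in each library, 6577.5 against 8718, 7872 against 8955.5 and 8841.5 against 11181 UMIs, and the part of depth and mitochondrial share in the Marco states was not tested.

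All 8 MHC class II genes tested were below 0 in Marco-positive cells (median -0.33), and none passed. Without CV 2, 3 of 9 tested were above 0 (median -0.53). H2-Eb1 was at 625 and 1254, 2556 and 4322, 843 and 1149 CPM in the same order, lower in the positive cells of each library (-0.76 ± 0.20 SE, edgeR adjusted p = 0.503, range 0.131 to 1). Apoe was at 10902 and 21107, 12313 and 14567, 11099.9 and 16919.9, lower in the positive cells of each library (-0.60 ± 0.16 SE, edgeR adjusted p = 0.503, range 1.37e-06 to 1). The neuronal growth-associated gene Basp1 (-1.25 ± 0.33) and the growth arrest gene Gadd45g (-1.42 ± 0.43) were also below, and the tubulin gene Tubb5 (0.98 ± 0.29) and the LIM protein gene Crip2 (1.10 ± 0.41) above, in each of the 3 libraries. Genes above in the positive cells of all 3 libraries with no overlap between states made up 4.49% of all tested and genes below 5.71%. Identity genes outside the gate were split, 8 above and 7 below 0 (median 0.01, and -0.07 in DESeq2), and Timd4 was at 0.39 ± 0.24.

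Without CV 1, Apoe and Hmox1 passed as lower and the gene models Gm26917 and Gm42418 as higher in Marco-positive cells. Without CV 2, Cxcr4 (lower) and Gm26917 (higher) passed, and without called doublets Gm26917 and Gm42418 did. Without PV 2 the count was 0. These names were chosen after their values were seen.

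Timd4-positive cells were compared with Timd4-negative cells in the same way (69 and 19 cells in PV 2, 27 and 11 in CV 1, 18 and 11 in CV 2). In edgeR 0 of 912 genes passed (0%), 67 had an unadjusted p under 0.05, and DESeq2 called 0. The chemokine gene Ccl4 had the smallest adjusted p and was at 449 and 1046, 999 and 1990.3, 225 and 919 CPM (positive and negative cells of PV 2, CV 1 and CV 2 in turn), lower in the positive cells of each library (log2 fold change -1.30 ± 0.24 SE, edgeR adjusted p = 0.0539, range over the alternatives 0.00371 to 1). Ccl4 passed with the gate set at 2 or at 4 genes, without PV 2 and without the filter on low counts, but its difference was -0.02 in a second random thinning of the same cells. Cxcl2 was at 757 and 177, 712 and 184, 149.8 and 153, higher in the positive cells of PV 2 and CV 1 and not of CV 2 (1.67 ± 0.36 SE, edgeR adjusted p = 0.129, range 0.000169 to 0.998), and its difference was -0.31 with at least 2 gate genes.

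Before thinning, Timd4-positive and Timd4-negative cells had median depths of 7738 and 7811 UMIs in PV 2, 9821 and 6148 in CV 1, and 9405 and 9851 in CV 2, and the part of depth in these states was not tested. Of 15 tested identity genes outside the gate, 11 had a log2 fold change above 0 in Timd4-positive cells (median 0.20, against -0.01 over all genes), and none passed. The sodium pump subunit gene Atp1b3 (1.24 ± 0.29) and the Ras activator gene Rasgrp2 (1.41 ± 0.38) were above, and the chaperone gene Hsp90aa1 (-0.91 ± 0.23) and Fth1 (-0.53 ± 0.14) below, in each library without overlap of the states, as were 7.89% of all genes above and 4.50% below. None of these passed.

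The Timd4 result turned on single settings. Without PV 2, Ccl4 and Tnfaip3, an inhibitor of NF-kappa-B signalling, passed as lower in Timd4-positive cells, and without CV 2, 5 did (Cxcl2 and Atp1b3 higher, and Bri3, Apoe and Malat1 lower). In a second random thinning of the same cells 4 genes passed as higher in Timd4-positive cells (Il1b, Cxcl13, Plac8 and Gm42418), none of which passed in the first. Cells negative after thinning can still express the gene. The unthinned share with a Timd4 UMI was 79.4%, but over all 209 members, shallow ones included. Members without a Timd4 UMI before thinning numbered 19 in PV 2, 12 in CV 1 and 11 in CV 2. Their median depths were 1558, 2017 and 3079 UMIs. In PV 2 and CV 1 most of these lay under the thinning depth of 2969 UMIs and were left out. The cells negative after thinning numbered 19, 11 and 11, with median depths of 7811, 6148 and 9851. Most of those in PV 2 and CV 1, and part of those in CV 2, thus had Timd4 UMIs before thinning. The states therefore depend on the draw. The Mrc1 states were not compared, as only PV 2 held at least 5 thinned cells of each state.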

How the data were processed

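The deposited values are raw UMI counts per gene and barcode from droplet 3′ libraries, 1 matrix for each of 4 libraries. The authors made them with Cell Ranger 4.0.0 on mm10, per the submitters' processing notes. The annotation is not given in the sources used here. The matrices hold 32285 genes and 2589 barcodes, each with at least 500 UMIs. The libraries held 3063778, 4373488, 2741760 and 2916638 UMIs (PV 1, PV 2, CV 1, CV 2).

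Cells were kept with at least 200 genes and at most 10% mitochondrial UMIs. A barcode present in several libraries stayed where at least 70% of its UMIs were. Members were summed per library and zone differences fitted with edgeR 4.0.16 (R 4.3.3, filterByExpr, TMM, quasi-likelihood, Benjamini-Hochberg), with DESeq2 1.42.0 as an alternative. States by Marco or Timd4 UMI were fitted with the library as a block, over libraries with at least 5 cells of each state. Doublets were called with Scrublet in scanpy 1.11.5 and kept unless stated. The gate, the gene lists and the tests were chosen with earlier results of these data known. The rule for named genes took those past the test, then those without overlap between groups with the smallest p, then the leading genes of each list by p and level. It also took the 15 largest folds to other macrophages in each direction, and a fixed set of Kupffer cell genes. Genes named from alternative settings fall outside this rule and were picked with their values known.

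The random thinning was changed to a separate draw for each cell after first results had been seen, and a second draw was added then. So was the setting that keeps only barcodes found in 1 library. Tested on simulated data, the zone fit recovered 10.4% of 2-fold, 67.8% of 4-fold and 94.4% of 8-fold changes among 4745 genes. The Marco fit recovered 70.0%, 98.4% and 100% among 1095 genes, and the Timd4 fit 77.8%, 100% and 100% among 900. False calls numbered 2 of 100 calls for the zone fit, 2 of 159 for Marco and 6 of 166 for Timd4. The simulation sets depth as in these sums and gives all genes 1 common spread. It does not model spread that differs between genes, shared barcodes or doublets, so recovery in the real sums can be lower. Gene symbols were matched to RefSeq for 3 promoters on GRCm38.p6. The promoter of Slc40a1 was not used here, and 1 gene of the lists is not reported here.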

Additional observations from a re-analysis of the deposited data

Results flagged for a closer look

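A fixed set of 17 Kupffer cell genes, gate genes included, was read for differences between states with 1 sign in PV 2, the PV library with enough cells, and the opposite sign in both CV libraries. It held for 6 of the 17 by Marco state and 3 of the 17 by Timd4 state. Over all genes tested it held for 230 of 1068 (21.5%) by Marco state and 220 of 912 (24.1%) by Timd4 state, so nothing is read from these counts. The difference between zones was not tested, and it sets 1 PV library against 2 CV libraries. Values are CPM in positive minus negative thinned cells.

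In Marco-positive cells, Clec4f differed by 154 in PV 2 and by -165 and -91.3 in CV 1 and CV 2. C6 differed by 58.1 in PV 2 and by -138 and -15.4. Axl, a receptor for uptake of dying cells, differed by 40.1 and by -155 and -126. The opposite order held for Slc40a1, at -162 in PV 2 and 561 and 479 in the CV libraries. It also held for Adgre1, the gene of the F4/80 antigen, at -54.6 against 48.5 and 17.4, and for Spic at -42.6 against 65.1 and 29.9.

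In Timd4-positive cells, Cd163 differed by -273 in PV 2 and by 496 and 160 in CV 1 and CV 2. Spic differed by 65.7 in PV 2 and by -88.3 and -52.6, and Id3 by 819 and by -232 and -316.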

How the results depend on the processing

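The count of genes called between zones was 1 in the reported fit. It was 0 under stricter cell limits (500 genes, 5% mitochondrial UMIs), without called doublets, with DESeq2 and in thinned cells. It was 4 with at least 2 gate genes, 4 on library totals without TMM and 8 without a filter on low counts. Leaving out each library in turn gave 0 to 83. S100a9 kept its direction wherever it was tested but did not pass with shared barcodes kept (-5.00), without PV 2 (-0.97), with DESeq2 (-2.29), in thinned cells (-5.51) or with the replicate block (-2.25). Cxcl13 kept its direction and passed without PV 1 (-2.05), without PV 2 (-11.61) and without TMM (-2.21).

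The count for Marco states, 0 as reported, was 1 with at least 2 gate genes, 2 without doublets, 2 without TMM, 7 without a filter and 0 to 4 leaving out each library. The count for Timd4 states, also 0, was 6 with at least 2 gate genes, 1 with at least 4, 6 without a filter, 4 in another random draw and 0 to 5 leaving out each library. The Timd4 share differed by -32.0 points under stricter limits. There PV 1 held 1 thinned cell, without a Timd4 UMI, against 1 positive and 1 negative cell as reported. The cause of the changes in the counts of genes was not tested. Leaving out a library moved the PV minus CV share of Kupffer cells between -11.5 and 9.63 points, and the shares with Marco, Timd4 and Mrc1 between -16.3 and 45.1, -16.6 and 11.8, and -41.3 and -4.92.

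With the replicate number as a block, 0 genes were called between zones. The share differences (-0.959, 14.4, -2.36 and -23.1 points) cannot change with this block, since the mean of paired differences equals the difference of means. The libraries share only a number: the correlation of deviations of same-numbered libraries was 0.113 over 4738 genes. Deviations from the mean of 2 libraries mirror each other, so both pairs must give this same value. The Mrc1 states could not be fitted and were not run. Depth limits PV 1, with 9597 UMIs of members, and the thinned states.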

Other observations

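Some values in the 209 members belong to no comparison. Cx3cr1, a chemokine receptor gene, had 21 UMIs, 20 of them in PV 2. Il10 was carried by few cells, 1 in PV 1, 7 in PV 2, 10 in CV 1 and 3 in CV 2, and the highest cell of CV 1 held 41 of its 78 UMIs. The iron regulator gene Hamp had 18 UMIs, and Cd209b, a lectin gene of marginal zone macrophages, had 0, as did Tlr5 and Tlr9.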
